A study of Mus musculus with 16 samples.

Results

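MicroRNAs of the miR-130 and miR-301 family were followed in mouse splenic cDC1s, conventional dendritic cells of type 1, which are known for presenting engulfed antigen to CD8 T cells. The 5 microRNAs are miR-130a-3p (MIMAT0000141), miR-130b-3p (MIMAT0000387), miR-130b-5p (MIMAT0004583), miR-301a-3p (MIMAT0000379) and miR-301b-3p (MIMAT0004186), chosen by identifier as 5 of the 853 mature microRNAs in the count table. The choice used no threshold and no contrast of its own, but it was made with earlier results of these data known, so the p-values below describe the fit and are not independent support. All 5 passed the filter on low counts, which left 255 microRNAs to test.

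Small RNA was counted in 16 libraries from C57BL6 mice, 4 in each of 4 groups. These were Xbp1 KO cells (Xbp1-deficient), Xbp1-Ire1 KO cells (compound-deficient), and WT cells from each of these lines (Xbp1-line and compound-line wild type). The sources used here give no age, sex, kind of allele or Cre driver, and the labels do not say whether replicates were separate mice, so the p-values rest on the spread among the 16 libraries, part of which may be technical. IRE1, whose alpha form (Ire1a) is the one named in the series, is an endoplasmic reticulum stress sensor with a ribonuclease that splices Xbp1 messages, from which the transcription factor XBP1 is made, and that can cleave other RNAs. The design sets cells without XBP1, and cells that lack IRE1 as well, each against wild type.

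A microRNA is cut from a hairpin precursor, and either arm of the hairpin (5p or 3p) can be loaded into an Argonaute protein. The loaded strand finds messenger RNAs mainly through its seed, bases 2 to 8 from the 5′ end. The 3p strands of the family share a seed and so can repress overlapping sets of messages, whereas miR-130b-5p is the opposite arm of the miR-130b hairpin and has another seed.

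The mature sequences are shown because the shared seed defines the family and because near-identical strands can share reads. They were taken from RefSeq (GRCm38.p6), where 4 of the 5 members had an entry, with the seed in capitals.
miR-130a-3p: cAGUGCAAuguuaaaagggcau
miR-130b-3p: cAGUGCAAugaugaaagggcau
miR-301a-3p: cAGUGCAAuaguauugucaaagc
miR-130b-5p: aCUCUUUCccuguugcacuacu
The 3 sequences of the 3p arms carry the seed AGUGCAA, and miR-130b-5p carries CUCUUUC. Over 1679 mature names in that table, 7 have the seed AGUGCAA. These are the 3 members above and miR-130c, miR-721, miR-6341 and miR-6389, whose identifiers are not paired with names in the tables used here. With positions counted from 1 at the 5′ end, miR-130a-3p and miR-130b-3p differ at 2 of 22 bases (U11A and A13G, first the base of miR-130a-3p). The sources used here do not say how many mismatches the authors allowed, so reads of these 2 microRNAs could have been exchanged. miR-301a-3p differs from miR-130a-3p at 10 of the first 22 bases.

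The family comes from 4 hairpins on 3 chromosomes (GRCm38.p6). Mir130a lies at chr2:84741115-84741178 on the minus strand, in no other gene of GENCODE M21. Mir301, the precursor of miR-301a-3p, lies at chr11:87113004-87113089 on the plus strand in an intron of Ska2, which encodes a spindle and kinetochore protein. Mir130b (chr16:17124061-17124142) and Mir301b (chr16:17124400-17124496) lie 257 bases apart on the minus strand, both in an intron of the protein-coding gene 2610318N02Rik. The Mir130b hairpin is shown because both of its arms were counted, with the 5p arm and then the 3p arm in capitals.
Mir130b: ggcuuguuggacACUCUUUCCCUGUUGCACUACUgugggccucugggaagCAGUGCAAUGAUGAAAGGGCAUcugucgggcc
The letters CNGCAG, the core of sites that the IRE1 ribonuclease is known to cut in stem-loops, were searched on the hairpin strand. They occurred in 0 of the 4 hairpins of the family and in 14.1% of the 1005 hairpins of the table, which says only that these letters are not in these windows.

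Total microRNA counts were 400210 to 1103001 per library in the Xbp1-line wild type, 783372 to 1403393 in Xbp1-deficient cells, 332923 to 882108 for compound-line wild type and, for compound-deficient cells, 175165 to 978134. Levels are given as CPM, counts divided by TMM-scaled library sizes and brought to the usual CPM unit. Of the 16 libraries, 6 correlated best with their own group on log2 CPM. All others correlated best with the Xbp1-deficient group, among them every compound-line wild-type and every compound-deficient library. Markers of other spleen cells were listed by name, but 0 of them has an identifier in the reference tables used here, so the purity of the sort was not tested. MicroRNA counts also cannot show the loss of Xbp1 or Ire1a messages. In whole-cell RNA, fewer cells of a type and less RNA per cell cannot be told apart.

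All 5 microRNAs were above 3 counts in each of the 16 libraries, and their order was nearly fixed. miR-301a-3p was the highest in 16 of 16 libraries, at 1307 to 2728 CPM with a median of 1953, and ranked 40 to 52 among all microRNAs of a library. miR-130b-3p followed at 464 to 1041 CPM (median 667) and miR-130b-5p at 399 to 830.5 CPM (median 602). These neighbours were close: the 3p arm was above the 5p arm in 12 of 16 libraries, so their order is not set. miR-301b-3p was the second lowest in 16 of 16 libraries, at 196 to 567 CPM (median 240.3). miR-130a-3p was the lowest in 16 of 16 libraries, at 52.8 to 208 CPM (median 88.5), on as few as 16 counts. Ligation in small RNA library preparation favours some ends over others, so these levels order the reads and not the molecules.

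The 5 microRNAs together made up 0.354% ± 0.0168 of a library (SD, n = 4) for the Xbp1-line wild type and 0.315% ± 0.0336 for Xbp1-deficient cells. Their share was 0.348% ± 0.0274 for the compound-line wild type, and compound-deficient cells reached 0.447% ± 0.0170. The compound-deficient libraries, at 0.428% to 0.466%, lay above all 12 others, which reached at most 0.374%. These shares are not TMM-scaled, and how often sums of 5 other microRNAs separate in this way was not tested. miR-301a-3p made up the largest part in each group, with mean shares of the family's counts between 46.7% and 58.1%. Its own change in compound-deficient cells did not pass (edgeR adjusted p = 0.185).

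**Figure D1:**
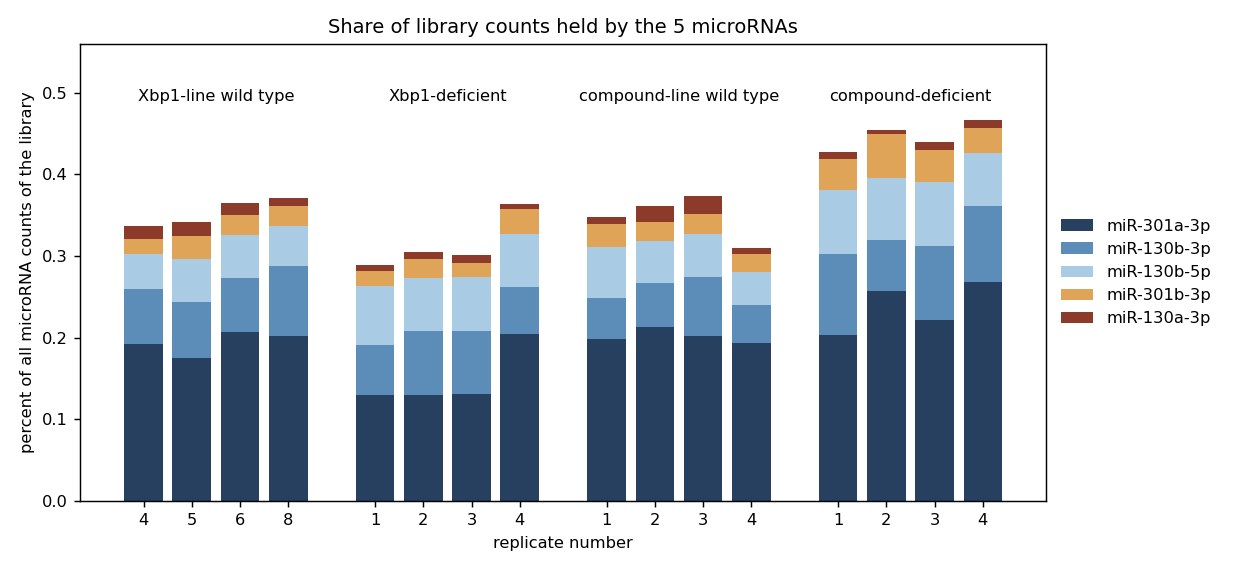
Percent of all microRNA counts of a library (vertical axis) held by each of the 5 microRNAs, stacked, for the 16 libraries by group and replicate number. The 4 compound-deficient libraries reach 0.428% to 0.466% and the 12 others at most 0.374%, and miR-301a-3p, the lowest segment, is the largest part of each bar. The shares are not TMM-scaled, and how often sums of 5 other microRNAs separate in this way was not tested.

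In compound-deficient cells, 3 of the 5 microRNAs rose against their wild type, miR-130b-3p by 1.65-fold, miR-130b-5p by 1.57-fold and miR-301b-3p by 1.79-fold, and none fell past the threshold. The 3 are the products of the Mir130b and Mir301b hairpins, which share a locus. In Xbp1-deficient cells none of the 5 passed, and miR-130b-5p came nearest. Averaged over both lines, miR-130b-5p was higher in deficient than in wild-type cells by 1.51-fold (edgeR adjusted p = 0.00108). Of all 255 microRNAs tested, 5.88% passed in either direction and 3.53% as higher in compound-deficient cells, 2.35% passed in Xbp1-deficient cells, and 3.14% passed as higher in the average of both lines. The median log2 fold change of the 5 was 0.65 in compound-deficient cells, where that of all 255 was 0.04. In Xbp1-deficient cells these medians were −0.01 and −0.07. The medians are descriptions and no test of the family, since 3 of the 5 come from 1 locus. In compound-deficient cells 4 of the 5 values were positive and 1, that of miR-130a-3p, was negative (−0.70). Adjusted p-values are those of edgeR's quasi-likelihood test over all 255 microRNAs, and the threshold was 0.05.

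**Figure D2:**
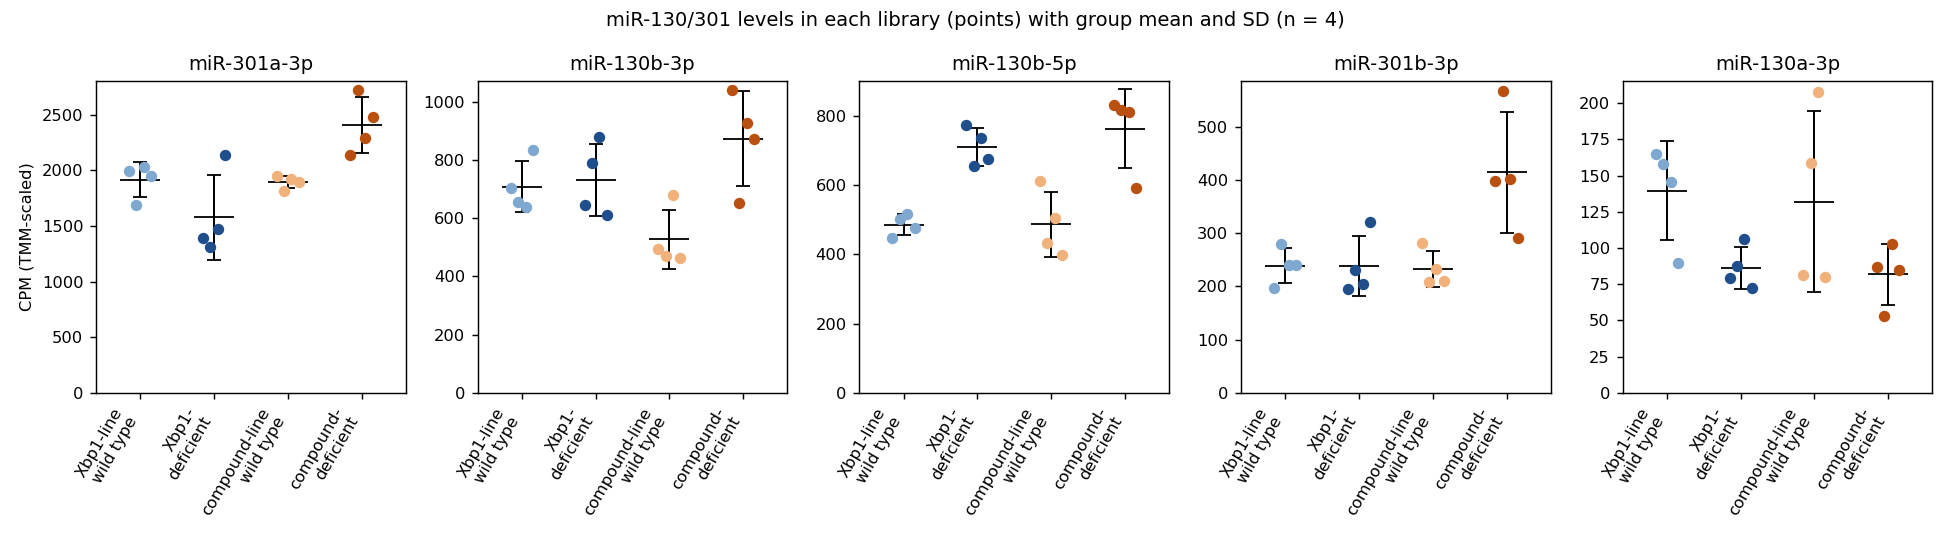
CPM on TMM-scaled library sizes (vertical axes, from 0, one scale per panel) of each microRNA in the 4 groups; points are libraries, lines the mean with its SD (n = 4). In the miR-130b-5p panel the Xbp1-deficient libraries (654 to 773 CPM) lie above their wild type (448 to 517 CPM), and in the miR-301a-3p and miR-301b-3p panels all compound-deficient libraries lie above all of their wild type. In each line, 4.71% of all microRNAs tested were higher in this way.

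miR-130b-5p, the arm with its own seed, showed the same direction in both lines. In the Xbp1-line wild type its levels were 448, 503, 517 and 477 CPM in replicates 4, 5, 6 and 8. In Xbp1-deficient cells they were 773, 654, 737 and 677 CPM in replicates 1 to 4. Every deficient library exceeded the highest of the wild type, which held for 4.71% of all microRNAs tested. The means were 710.2 ± 54.6 and 486 ± 30.2 CPM (SD, n = 4), and the log2 fold change was 0.55, with SE 0.16 (95% interval 0.22 to 0.87), and the edgeR adjusted p of 0.0793 missed the threshold. It passed in 6 of 18 alternative settings, among them DESeq2 (adjusted p = 0.00120) and limma with voom weights (adjusted p = 0.0327).

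In the compound-line wild type, miR-130b-5p stood at 612, 433, 505 and 399 CPM in replicates 1 to 4. In compound-deficient cells it stood at 830.5, 817, 812 and 592 CPM. The groups overlapped in 1 library each, since compound-deficient replicate 4 was below wild-type replicate 1. The means were 763 ± 114 and 487 ± 94.3 CPM (SD, n = 4), and the log2 fold change was 0.65, with SE 0.16 (interval 0.32 to 0.98, edgeR adjusted p = 0.0174). The changes of the lines differed by 0.11 on the log2 scale (interval −0.36 to 0.57, edgeR adjusted p = 0.977). Over both lines the log2 fold change was 0.60 (SE 0.11, interval 0.37 to 0.83). It passed in all 25 alternative settings run, with edgeR, DESeq2 or limma adjusted p-values of at most 0.00427.

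miR-130b-3p, the arm with the family seed, stood at 705, 655, 640.3 and 836 CPM in replicates 4, 5, 6 and 8 of the Xbp1-line wild type. Among Xbp1-deficient libraries it stood at 645, 790.3, 878 and 612 CPM (replicates 1 to 4). These groups overlapped widely. The means were 731 ± 125 and 709 ± 88.9 CPM (SD, n = 4), and the log2 fold change was 0.05, with SE 0.18 (interval −0.32 to 0.42, edgeR adjusted p = 0.934).

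In the compound line, miR-130b-3p stood at 496, 469, 679.9 and 464 CPM in wild-type replicates 1 to 4. In compound-deficient cells it stood at 1041, 653, 928 and 872 CPM. Only deficient replicate 2 fell below the highest wild-type library. The means were 873 ± 163 and 527 ± 103 CPM (SD, n = 4), and the log2 fold change was 0.73, with SE 0.18 (interval 0.35 to 1.1, edgeR adjusted p = 0.0174). The wild types overlapped and did not differ past the threshold, but compound-line wild type leaned lower than Xbp1-line wild type. The log2 difference was −0.42 (SE 0.18, interval −0.80 to −0.04, edgeR adjusted p = 0.387). The difference between the changes of the lines, 0.68 (SE 0.25, interval 0.15 to 1.21), did not pass (edgeR adjusted p = 0.293).

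miR-301b-3p, cut from the neighbouring hairpin, stood at 197, 279, 241 and 239.8 CPM in replicates 4, 5, 6 and 8 of the Xbp1-line wild type. Among Xbp1-deficient libraries it stood at 196, 231, 205 and 320.3 CPM (replicates 1 to 4). The highest of these 8 libraries was deficient replicate 4 and the lowest deficient replicate 1, so the groups overlapped throughout. The log2 fold change was −0.01 (SE 0.21, interval −0.45 to 0.43, edgeR adjusted p = 0.988).

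In the compound line, miR-301b-3p stood at 282, 209, 232 and 209.9 CPM in wild-type replicates 1 to 4. In compound-deficient cells it stood at 398, 567, 402 and 291 CPM. Every deficient library exceeded the highest of the wild type, which held for 4.71% of all microRNAs tested in this comparison, although replicate 4 cleared the highest wild-type library only narrowly. The means were 414 ± 114 and 233 ± 34.2 CPM (SD, n = 4), and the log2 fold change was 0.84, with SE 0.22 (interval 0.38 to 1.29, edgeR adjusted p = 0.0189). The difference between the changes of the lines was 0.85 (SE 0.30, interval 0.21 to 1.48, edgeR adjusted p = 0.293).

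The 3 calls in compound-deficient cells depended on the estimate of the spread and on single libraries. In a fit of these 8 libraries alone none of the 3 passed, with edgeR adjusted p-values of 0.0972, 0.0972 and 0.0936 for miR-130b-3p, miR-130b-5p and miR-301b-3p, whereas the log2 fold changes were 0.70, 0.63 and 0.81. With upper-quartile scaling the log2 fold changes were 0.46, 0.38 and 0.57 in the same order and none passed (edgeR adjusted p-values of 0.0635, 0.130 and 0.127). With no filter on low counts miR-130b-5p did not pass (edgeR adjusted p = 0.0970). None passed without wild-type replicate 2 or without deficient replicate 3 (edgeR adjusted p-values of 0.0550 to 0.0716). Without deficient replicate 2, the library highest in miR-301b-3p, miR-130b-3p alone passed, and miR-301b-3p was at 0.56 (edgeR adjusted p = 0.142). Without deficient replicate 1 miR-130b-3p did not pass (edgeR adjusted p = 0.0616), and without wild-type replicate 4 miR-301b-3p did not (edgeR adjusted p = 0.0672).

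miR-301a-3p, the most abundant member, stood at 1996, 1687, 2034 and 1954 CPM in replicates 4, 5, 6 and 8 of the Xbp1-line wild type. Among Xbp1-deficient libraries it stood at 1389, 1307 and 1473 CPM in replicates 1 to 3 and at 2140.1 CPM in replicate 4. Replicates 1 to 3 lay below every wild-type library and replicate 4 above all of them. The log2 fold change was −0.28 (SE 0.15, interval −0.59 to 0.02, edgeR adjusted p = 0.374). Without replicate 4 it was −0.48 (edgeR adjusted p = 0.0614), which moved the value by over 1.5 times without a call.

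In the compound line, miR-301a-3p was even among wild-type replicates 1 to 4, at 1951, 1819, 1921 and 1900.5 CPM, a coefficient of variation of 2.99%. In compound-deficient cells it stood at 2137, 2728, 2292 and 2478 CPM. Every deficient library exceeded the highest of the wild type, as for 4.71% of all microRNAs tested in this comparison. The means were 2409 ± 255 and 1898 ± 56.7 CPM (SD, n = 4), and the log2 fold change was 0.34, with SE 0.15 (interval 0.04 to 0.65), and the edgeR adjusted p of 0.185 missed the threshold. Without deficient replicate 2, the highest library, it was 0.19 (edgeR adjusted p = 0.610), and with upper-quartile scaling 0.0695 (edgeR adjusted p = 0.866). The difference between the changes of the lines was 0.63 (SE 0.21, interval 0.19 to 1.06, edgeR adjusted p = 0.228).

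**Figure D3:**
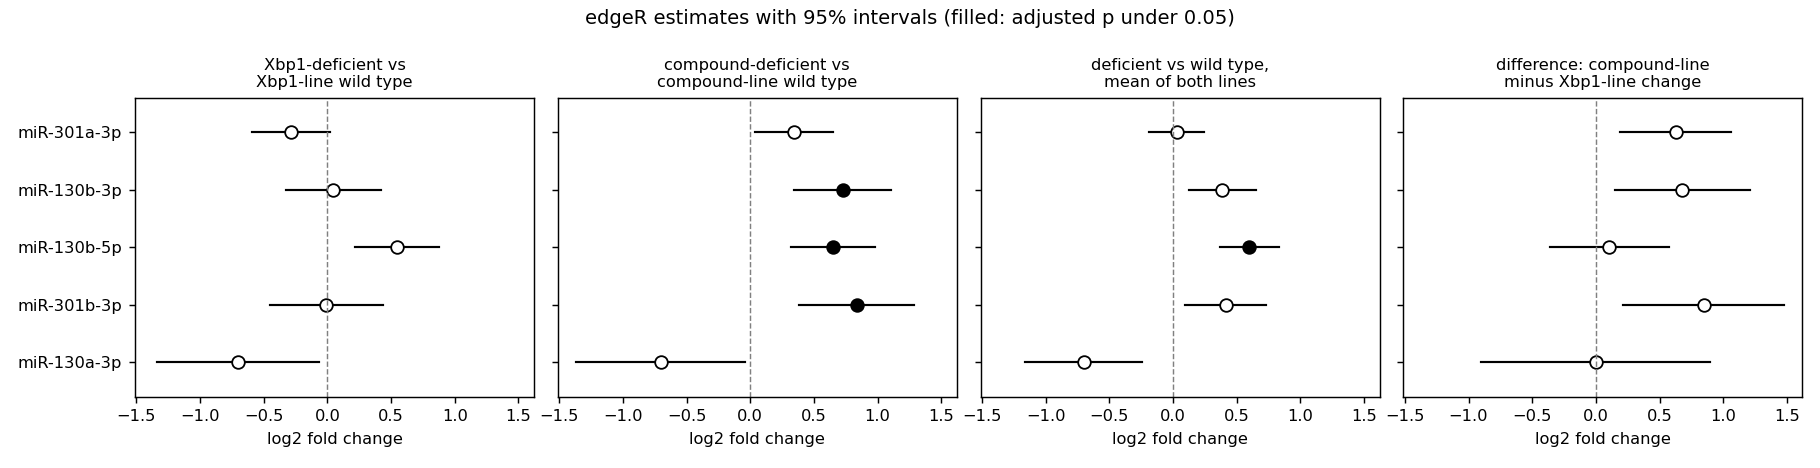
edgeR log2 fold changes (horizontal axes) with 95% intervals for the 5 microRNAs in each line, averaged over both lines, and as the difference of the changes (compound line minus Xbp1 line); filled points passed an adjusted p of 0.05. Filled points are the 3 higher microRNAs of compound-deficient cells and miR-130b-5p in the average of both lines; none is filled in Xbp1-deficient cells or for the difference.

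Whether compound loss changed the family otherwise than loss of Xbp1 was tested as the difference of both changes, and none of the 5 passed. Nor did any of the 255 microRNAs (0%) in edgeR, where 26 had an unadjusted p under 0.05, while DESeq2 called 1 and limma voom 0, and edgeR called 2 with no filter and 3 with upper-quartile scaling. For miR-301a-3p, miR-130b-3p and miR-301b-3p the unadjusted intervals lay above 0, with unadjusted edgeR p-values of 0.00705, 0.0150 and 0.0116. With upper-quartile scaling these differences were 0.22, 0.29 and 0.46 (edgeR adjusted p-values of 0.658, 0.554 and 0.554). None passed the adjustment over all 255, so a difference in their response to the genotypes was not shown. For miR-130a-3p the difference had an interval of −0.90 to 0.89. Between the wild types, edgeR also called 0 of the 5 and 0 of the 255 (0%), with 24 at an unadjusted p under 0.05, while DESeq2 called 4 of the 255 and limma voom 0. In this comparison edgeR called 14 with no filter, 2 in a fit of the wild types alone, and 1 and 2 without Xbp1-line replicate 5 and 6. None of these calls was among the 5. Apart from miR-130b-3p, the members differed between the wild types by −0.07 to 0.00 on the log2 scale.

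The average over both lines, which uses the same libraries as both single comparisons, was 0.39 for miR-130b-3p (SE 0.13, interval 0.12 to 0.65, edgeR adjusted p = 0.0673). It was 0.41 for miR-301b-3p (SE 0.15, interval 0.10 to 0.73, edgeR adjusted p = 0.11) and 0.03 for miR-301a-3p (SE 0.10, interval −0.19 to 0.25, edgeR adjusted p = 0.932), whose changes in the lines had opposite signs. None of these 3 passed. miR-130b-3p did pass with DESeq2 (adjusted p = 0.0111), with DESeq2 size factors in edgeR (adjusted p = 0.0376) and without compound-line wild-type replicate 3 (edgeR adjusted p = 0.0211). miR-301b-3p passed without compound-deficient replicate 4 (edgeR adjusted p = 0.0496) and was at 0.27 without compound-deficient replicate 2 (edgeR adjusted p = 0.291).

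Compound-deficient and Xbp1-deficient cells were compared directly, which includes any difference between the lines and shares libraries with the comparisons above. miR-301a-3p was 1.53-fold higher in compound-deficient cells (log2 fold change 0.61, SE 0.15, interval 0.30 to 0.92, edgeR adjusted p = 0.0180). miR-301b-3p was 1.75-fold higher (log2 fold change 0.81, SE 0.21, interval 0.36 to 1.26, edgeR adjusted p = 0.0328). Of all microRNAs tested, 5.1% passed as higher and 7.45% in either direction. For both members, 1 Xbp1-deficient library, replicate 4, lay inside the range of the compound-deficient group. The log2 fold changes were 0.26 for miR-130b-3p (interval −0.12 to 0.63), 0.11 for miR-130b-5p (interval −0.22 to 0.44) and −0.07 for miR-130a-3p (interval −0.73 to 0.59), and none of these passed. Neither call held without Xbp1-deficient replicate 1, 2 or 3, or without compound-deficient replicate 2 or 3, where the edgeR adjusted p-values were 0.0630 to 0.138, nor in a fit of these 8 libraries alone, at 0.0609 and 0.0663. With upper-quartile scaling the log2 fold changes were 0.36 and 0.57 (edgeR adjusted p-values of 0.206 and 0.151), and with no filter 0.46 and 0.65 (0.205 and 0.174). Without compound-deficient replicate 4, miR-301b-3p passed and miR-301a-3p did not (edgeR adjusted p = 0.0517). Total counts were 175165 to 978134 in the compound-deficient and 783372 to 1403393 in the Xbp1-deficient libraries. With log2 depth as a covariate the log2 fold changes were 0.48 for miR-301a-3p and 0.80 for miR-301b-3p, at edgeR adjusted p-values of 0.174 and 0.114. This covariate was added after the data were seen.

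miR-130a-3p, the lowest member, leaned the other way. It stood at 165, 158, 146 and 89.6 CPM in replicates 4, 5, 6 and 8 of the Xbp1-line wild type. Among Xbp1-deficient libraries it stood at 79.2, 87.4, 106 and 72.4 CPM (replicates 1 to 4). Wild-type replicate 8, the shallowest of its group, was the only wild-type library within the deficient range. The log2 fold change was −0.70 (SE 0.30, interval −1.34 to −0.07, edgeR adjusted p = 0.264).

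In the compound line, miR-130a-3p stood at 81.3, 159, 208 and 79.8 CPM in wild-type replicates 1 to 4. In compound-deficient cells it stood at 87.0, 52.8, 103 and 84.6 CPM. Wild-type replicates 2 and 3 were high and replicates 1 and 4 were within the deficient range. The log2 fold change was −0.70 (SE 0.32, interval −1.37 to −0.04, edgeR adjusted p = 0.216), and without wild-type replicate 3 it was −0.39 (edgeR adjusted p = 0.584). Over both lines it was −0.70 (SE 0.22, interval −1.16 to −0.24), and the edgeR adjusted p of 0.0581 missed the threshold. It passed in 10 of 25 alternative settings, DESeq2 among them (adjusted p = 0.0200).

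The level of miR-130a-3p also moved with depth. Within groups its log2 CPM correlated with the log2 total count at a Pearson's r of 0.63 over the 16 libraries, against −0.38 to 0.45 for the other 4 members. With log2 depth as a covariate the change over both lines was −0.75 (edgeR adjusted p = 0.00959). Counting error was large at this level: 16 counts in compound-deficient replicate 4 correspond to 91.3 CPM before TMM scaling, with an exact (Clopper-Pearson) 95% interval of 52.2 to 148. This interval covers counting error only, since PCR copies cannot be told from molecules here.

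Ratios of counts within a library (each with 0.5 added) do not depend on scaling, and 4 such comparisons were made with exact two-sided permutation tests, which cannot go below p = 0.0286 for 4 against 4 libraries. Both arms of Mir130b come from the same hairpin. The ratio of miR-130b-3p to miR-130b-5p was 1.57, 1.30, 1.24 and 1.75 in the Xbp1-line wild type (replicates 4, 5, 6 and 8). The values were 0.834, 1.21, 1.19 and 0.905 for Xbp1-deficient cells (replicates 1 to 4). All 4 deficient libraries lay below all 4 wild-type libraries, by 0.51 on the log2 scale on average, with an exact permutation p of 0.0286 and an adjusted p of 0.114 over the 4 tests, so the difference did not pass.

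In the compound line the arm ratio was 0.810, 1.08, 1.35 and 1.16 in wild-type replicates 1 to 4. It was 1.25, 0.80, 1.14 and 1.47 in compound-deficient cells. The groups overlapped, with a log2 difference of 0.07 (exact permutation p = 0.771, adjusted 0.914). The arm ratio of the compound-line wild type (mean 1.1 ± 0.223, SD, n = 4) was nearer to that of Xbp1-deficient cells (1.03 ± 0.193) than to that of the Xbp1-line wild type (1.47 ± 0.238). This difference between the wild types was not tested.

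The ratio of miR-130b-3p to miR-301b-3p, which come from neighbouring hairpins, ranged from 1.15 to 4.28 over the 16 libraries. Its log2 difference was 0.06 in Xbp1-deficient and −0.07 in compound-deficient cells against their wild types, each with an exact permutation p of 0.914. Both differences were smaller than the SD of each group, which was 0.30 to 0.61. The mean log2 ratio was 1.57 in the Xbp1-line and 1.17 in the compound-line wild type, and this difference was not tested.

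**Figure D4:**
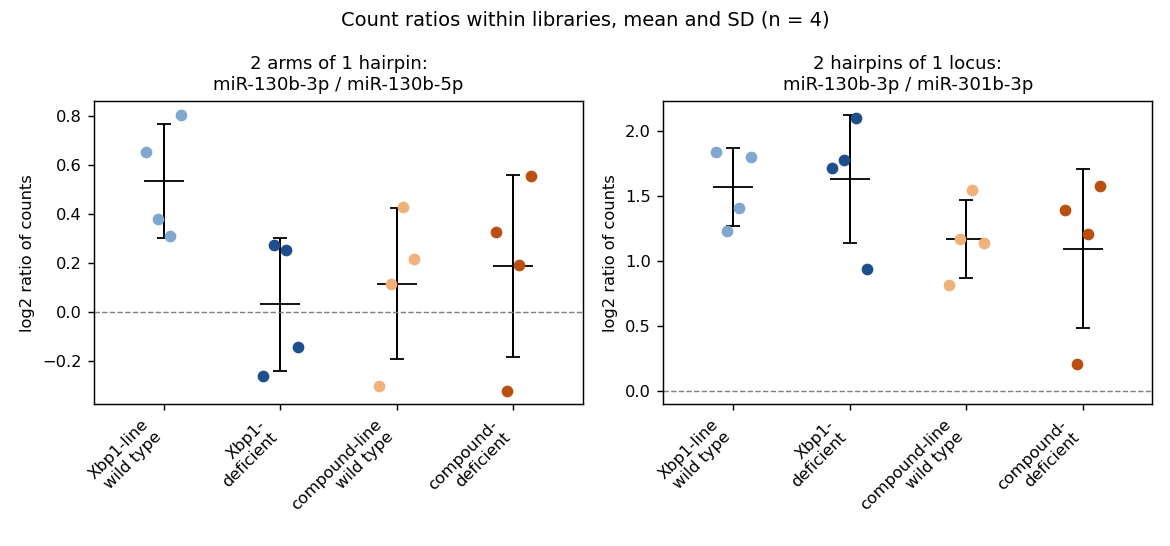
Log2 ratios of counts within each library (vertical axes) for the arms of Mir130b (left) and for miR-130b-3p against miR-301b-3p (right); points are libraries, lines the mean with its SD (n = 4). On the left the 4 Xbp1-deficient libraries (0.834 to 1.21 as linear ratios) lie below the 4 of their wild type (1.24 to 1.75), and all other groups overlap their wild type.

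How far the members moved together is given as a description. Over the 16 libraries, which share groups and scaling, Pearson's r of log2 CPM was 0.55 between the arms of Mir130b, 0.30 between miR-130b-3p and miR-301b-3p, and 0.71 between miR-301a-3p and miR-301b-3p, which lie on different chromosomes. With group means removed these were 0.07, −0.38 and 0.46. Before that removal they stood at percentiles 95.5, 81.3 and 99.1 among all pairs of tested microRNAs. The other pair across that locus, miR-130b-5p and miR-301b-3p, had an r of 0.61, and 0.52 with group means removed. miR-130a-3p and miR-130b-3p, which differ at 2 bases, had an r of −0.07, and 0.49 with group means removed. Outside the family, the most similar microRNA over the 16 libraries was MIMAT0000539 for miR-130b-5p (r = 0.89) and MIMAT0000546 for miR-301a-3p (r = 0.85). It was MIMAT0000122 for miR-130b-3p (r = 0.84), MIMAT0000517 for miR-130a-3p (r = 0.81) and MIMAT0004324 for miR-301b-3p (r = 0.80). The second nearest were MIMAT0004626 (r = 0.84), MIMAT0000215 (0.82), MIMAT0000126 (0.73), MIMAT0029886 (0.77) and MIMAT0000660 (0.76) in the same order. All were picked as the highest, so large values follow in part from the choice. The median r with the tested microRNAs outside the family was −0.0014 to 0.058 for the 5 members. The files do not pair these identifiers with names.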

How the data were processed

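The authors deposited raw counts, whole reads per mature microRNA named by miRBase identifier, and log2 values for 473 microRNAs, per the file headers with 1 column per sample. From the values, the deposited log2 values are log2 of the count plus 0.5, less a constant for each library; how these constants were set was not identified. Sorts gave 5000 to 50000 cells, and libraries came from the TruSeq small RNA kit, per the labels' protocols. Named without roles in the submitters' processing notes are GRCm38, mm10, Bowtie 1.1.2, limma 3.42.2, FastQC 0.11.3 and cutadapt 1.8.1. The sources used here do not give the microRNA release or how reads that match several microRNAs were handled. Member names were given with the identifiers.

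Raw counts were tested with edgeR 4.0.16 (R 4.3.3): filterByExpr (count minimum 10), TMM, and 1 quasi-likelihood fit of 16 libraries with 4 group means, without a replicate block. Benjamini-Hochberg adjustment ran over 255 microRNAs. log2 CPM used a prior count of 1 and ratios a pseudocount of 0.5. Alternatives used DESeq2 1.42.0, limma 3.58.1, other scalings, filters and sample sets, with the 255 microRNAs kept unless the filter was the choice. Within each group, libraries differed beyond sampling noise (chi-square per degree of freedom at least 15.7). The steps were tested on simulated data. For compound-deficient against wild type, 17% of 1.5-fold and 47.4% of 2-fold changes were recovered over 5 runs in which a mean of 243.6 microRNAs were tested. Every simulated microRNA had the same spread, a biological coefficient of variation of 31.2%, so these shares are not specific to the 5 members. Each run also changed many microRNAs at once, some of them 4-fold, which can ease the adjusted threshold. Recovery in the real data may therefore be lower. All 5 members are named; the nearest microRNAs outside the family are the 2 of highest Pearson's r per member. Members and lists were chosen with earlier results of these data known. Lists of opposite arms, seed relatives, shifted-seed microRNAs and cell markers matched 0 identifiers and are not analysed here.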

Additional observations from a re-analysis of the deposited data

Results flagged for a closer look

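miR-130b-5p stood at 592 CPM in compound-deficient replicate 4, the shallowest library of all, against 812 to 830.5 CPM in the other 3 libraries of the group. The gap to the nearest of the others was 0.933 of the range of the group on log2 CPM, which marks a library far from the others by Dixon's criterion. It was the only one in 28 groups of 4 values searched, and chance flags about 1 in 20. Without this library the log2 fold change in compound-deficient cells was 0.75 (edgeR adjusted p = 0.00699), against 0.65 with it. The part of depth in this value was not tested.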

How the results depend on the processing

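Of 300 member values recomputed with all replicates, 235 kept direction and call, 14 became calls, 21 lost a call and 30 changed sign, the last all from log2 values of at most 0.11 in size. Without 1 replicate these were 266, 6, 21 and 27 of 320. In Xbp1-deficient cells 0 members were called, and 1 (miR-130b-5p) with DESeq2, DESeq2 size factors, limma voom, limma on the deposited log2 values, only the groups compared, or upper-quartile scaling. In compound-deficient cells 3 were called, 2 with no filter, 0 with only the groups compared or upper-quartile scaling, and 0 to 3 without 1 replicate. For compound- against Xbp1-deficient cells 2 were called, 1 with limma on the deposited values, 0 with the depth covariate, no filter, only the groups compared or upper-quartile scaling, and 0 to 2 without 1 replicate. Over both lines 1 was called, 3 with DESeq2, 2 with DESeq2 size factors, the filter of 10 CPM, no filter, total counts alone, upper-quartile scaling or the depth covariate, and 1 to 2 without 1 replicate. No member was called for the difference of the changes or between wild types in any setting run. Upper-quartile scaling moved the median of all microRNAs by 0.12 (Xbp1-deficient), −0.28 (compound-deficient), −0.39 (difference), −0.24 (compound- against Xbp1-deficient) and 0.15 (wild types), and total counts by −0.10, −0.12 and −0.11 (Xbp1-deficient, compound-deficient, both lines). No filter moved it by −0.17 (compound- against Xbp1-deficient) and −0.11 (wild types). The deposited log2 values moved it by 0.11 (Xbp1-deficient) and −0.11 (compound- against Xbp1-deficient). Without compound-deficient replicate 2 it moved by −0.11 (compound-deficient). The cause of the changed calls was not tested.

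Pairing by replicate number was not seen, but 4 same-numbered pairs per comparison cannot exclude it. Same-numbered deviations correlated at 0.11, −0.26, 0.26 and 0.01 between compound-deficient and wild-type cells and at 0.04, −0.07, 0.10 and 0.08 between both deficient groups. Their median was 0.06 in each comparison, against −0.02 and −0.01 for pairs with unlike numbers. With a replicate block 0 members were called in either comparison, with edgeR adjusted p-values of 0.161, 0.161 and 0.163 for miR-130b-3p, miR-130b-5p and miR-301b-3p and of 0.0550 and 0.0889 for miR-301a-3p and miR-301b-3p. In exact sign-flip permutation tests with that block the arm ratio differed by 0.07 (p = 0.875) and the ratio of miR-130b-3p to miR-301b-3p by −0.07 (p = 1) in compound-deficient cells. The Xbp1 groups share only number 4 and allow no block.

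Sign changes on the log2 scale were as follows. In Xbp1-deficient cells miR-301b-3p was at 0.0172 with DESeq2 size factors, 0.12 with upper-quartile scaling, 0.00852 with no filter, 0.0149 with DESeq2 and 0.0492 with the deposited values (−0.20 to 0.0773 without 1 replicate). There miR-130b-3p was at −0.0608 with total counts and −0.0162 with the covariate (−0.0460 to 0.13). For the difference of the changes miR-130b-5p was at −0.28 with upper-quartile scaling (−0.0133 to 0.23), and miR-130a-3p at 0.0109 with voom and 0.24 with the covariate (−0.23 to 0.31). Between deficient groups miR-130b-5p was at −0.13 with upper-quartile scaling and −0.0529 with no filter, and miR-130a-3p at 0.45 with the covariate (−0.21 to 0.0222). Between wild types miR-130b-5p was at −0.0111, −0.0123 and −0.0108 with DESeq2 size factors, DESeq2 and voom and −0.11 with no filter (−0.12 to 0.0792). There miR-130a-3p was at 0.0656, 0.0228 and 0.21 with upper-quartile scaling, total counts and the covariate (−0.38 to 0.12), and miR-301b-3p at 0.11 and 0.0237 with upper-quartile scaling and total counts (−0.14 to 0.0470). Between wild types miR-301a-3p was at 0.14 with upper-quartile scaling, 0.0552 with total counts, 0.000203 with the filter of 10 CPM, 0.0141 with the deposited values and 0.0172 with only the groups compared (−0.0721 to 0.0144). Over both lines miR-301a-3p was at −0.0403 with upper-quartile scaling, −0.0753 with total counts and −4.41e-05 with the filter of 10 CPM (−0.0917 to 0.0573). Without 1 replicate the arm ratio ranged from −0.59 to −0.41 in Xbp1-deficient cells, where 5 of 8 fits lost an unadjusted exact permutation p under 0.05, and from −0.0662 to 0.24 in compound-deficient cells. The ratio of miR-130b-3p to miR-301b-3p ranged from −0.0928 to 0.30 and from −0.23 to 0.22. Depth limits miR-130a-3p most, with 16 to 193 counts per library.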
